A study of Mus musculus with 14 samples.

Results

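The genes described here are the CREB transcription factors Creb1, Atf1 and Crem, their CRTC coactivators Crtc1, Crtc2 and Crtc3, the CRTC kinase gene Sik1, and Cited2, Cited4 and Ppargc1a, whose proteins work with the coactivator Crebbp. They were chosen by name as the partners of Crebbp, 10 of the 23284 genes in the count files, and all 10 had enough reads to be tested. RNA was sequenced from 14 primary small cell lung cancers of mice. The labels give the genotype of 7 tumours, called RPC here, as Rb1/Trp53/Crebbp, and that of 7, called RP, as Rb1/Trp53, so alteration of the tumour suppressor genes Rb1 and Trp53 is common to both and Crebbp is the difference between them. Exons removed, the cells in which that was driven, and the strain, age and treatment of the mice are not stated there. Nor is it stated that each tumour came from its own animal, so the p-values speak only for the spread among these samples, part of which may be technical.

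Crebbp is a histone acetyltransferase that takes its name from CREB. In the textbook pathway, cyclic AMP activates protein kinase A, which phosphorylates the kinase-inducible domain of CREB, and the phosphorylated domain binds the KIX domain of Crebbp. CRTC proteins are held in the cytoplasm when SIK kinases phosphorylate them, and once dephosphorylated they enter the nucleus and bind the leucine zipper of CREB. CITED proteins bind another domain of Crebbp, which they share with hypoxia-inducible factors. Sik1, Crem and Ppargc1a are themselves known targets of CREB.

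The libraries held 10060969 to 24052799 counts in genes in RPC tumours and 10965714 to 23678648 in RP tumours. Crebbp itself, counted over the whole gene, was at 57.9 to 70.0 CPM (counts scaled to library size; median 64.7) in RPC tumours and at 59.4 to 97.2 CPM (median 69.9) in RP tumours, and did not pass the test (edgeR adjusted p = 0.265). Those counts include exons outside any deleted segment and RNA of undeleted cells, so they are no check of the labels. The summed level of 6 neuroendocrine markers of small cell lung cancer was 2009 to 4075 CPM in RPC tumours and 4000 to 9565 CPM in RP tumours. RPC tumours 3, 5 and 6 stood apart in the summed level of 27 markers of endothelial cells, fibroblasts, macrophages, T cells and lung epithelium. It was 43.4 to 230.7 CPM there, 699.8 to 5890 CPM in the other 4 RPC tumours and 999.5 to 5892 CPM in RP tumours. Not every cell type did so. Alveolar type 2 markers summed to 7.25 CPM in RPC tumour 4, against 9.12 to 19.6 CPM in RPC tumours 3, 5 and 6. Endothelial and club cell sums reached 85.2 and 30.1 CPM in RPC tumours 3, 5 and 6, above the lowest of the other 11 tumours (40.2 and 23.2 CPM). Where leaving out these 3 libraries moved the fold change of one of the 10 genes, or of a gene named from the pathway lists, by over 1.5 times, both values are given.

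No gene among the 10 passed the threshold between genotypes. Creb1, Cited4 and Ppargc1a had higher means in RPC tumours, and the other 7 had negative log2 fold changes of RPC over RP, from -0.20 for Atf1 to -0.86 for Sik1. The edgeR quasi-likelihood test called 0 of the 10 at an adjusted p under 0.05, where it called 2.21% of all 14804 tested genes (1.09% higher and 1.12% lower in RPC tumours). DESeq2, which called 9.67% of these genes, and limma-voom, which called 3.4%, also called 0 of the 10. At an unadjusted p under 0.05 edgeR counted 3 of the 10, against 21.3% of all tested genes. Ranges of the genotypes overlapped for all 10, where 1.15% of tested genes had ranges that did not. The median log2 fold change of the 10 was -0.27, against 0.002 over all tested genes, and 30% were positive, against 50.2%. For the CREB factors and CRTC coactivators all 6 of the 95% intervals lay between -1.04 and 0.70 on the log2 scale. They are drawn in the plot of fold changes with their intervals. That of Crem ran from -1.04 to 0.09, so these intervals do not show that the genotypes were equal.

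**Figure D1:**
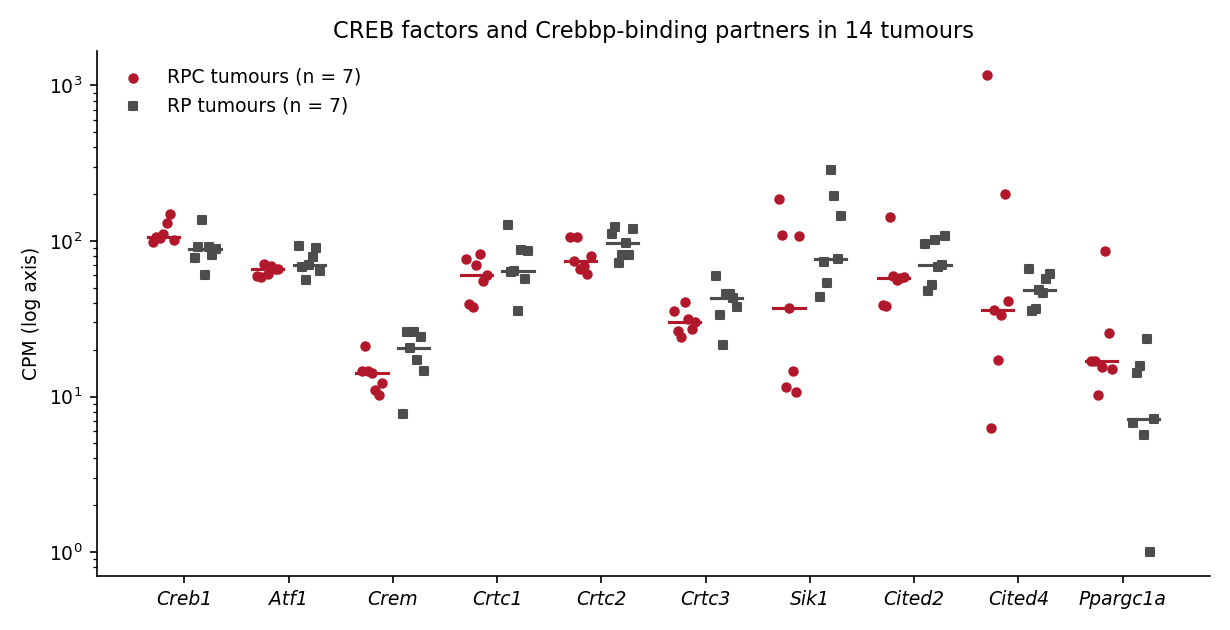
Level of each gene (CPM, log axis) in each of 7 RPC tumours (red circles) and 7 RP tumours (grey squares), with a bar at the median. The genotypes overlap for every gene, and Cited4 runs from 6.27 to 1174 CPM within RPC tumours.

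**Figure D2:**
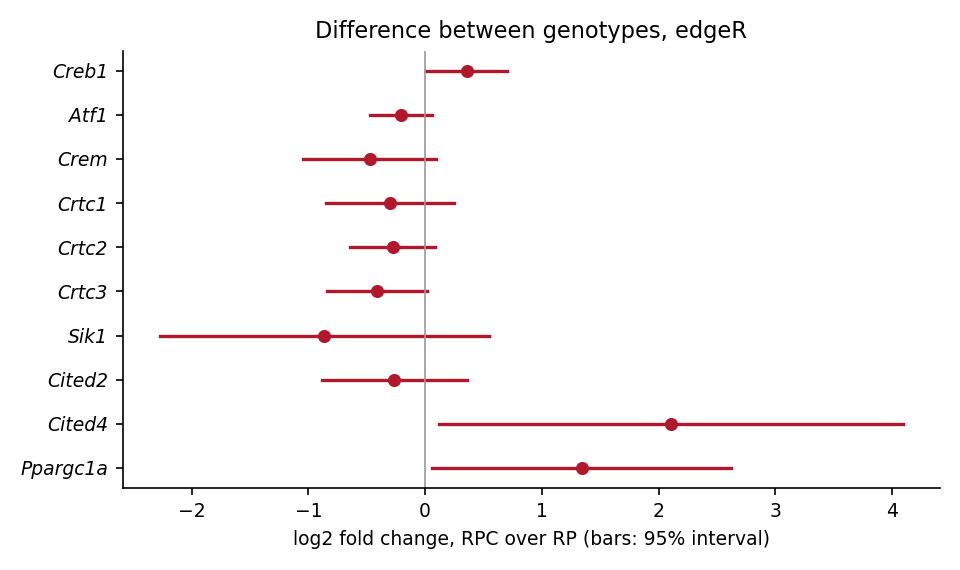
Log2 fold change of RPC over RP tumours for each gene, with its 95% interval from edgeR (bars, 7 tumours each). Intervals are short for Creb1, Atf1 and Crtc2 and long for Sik1, Cited4 and Ppargc1a, and none of the 10 passed after adjustment.

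Within a genotype the genes differed widely in how far tumours spread. Atf1 varied little, with a within-genotype SD of 0.20 on the log2 CPM scale, below that of 96.6% of tested genes, and Creb1 (0.29) and Crtc2 (0.31) were below 82.9% and 79.4%. Crem (0.50), Crtc1 (0.52) and Cited2 (0.56) were near the middle of all genes. Cited4 (1.76), Sik1 (1.41) and Ppargc1a (1.23) were among the most variable, with only 6.78%, 12.8% and 17.1% of tested genes above them.

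To compare levels between genes, CPM was divided by the length in kilobases of the longest transcript in the GENCODE basic set. On this scale of CPM per kilobase, the order of medians over 14 tumours was Cited4 (34.9), Crtc2 (29.5), Atf1 (28.4), Cited2 (24.5), Sik1 (16.6), Creb1 (11.99), Crtc1 (11.2), Crtc3 (6.71), Crem (4.98) and Ppargc1a (2.36). Most neighbours in that order were not separated. Crtc2 was above Atf1 in 9 of 14 tumours, and Creb1 was above Crtc1 in 8 of 14. Steps were clearer in the individual tumours for Crtc1, which was above Crtc3 in 13 of 14, and for Crem, which was above Ppargc1a in 12 of 14. Among CREB factors, Atf1 at 27.2 ± 2.02 CPM per kilobase in RPC and 31.4 ± 5.75 in RP tumours was above Creb1 at 13.7 ± 2.22 in RPC and 10.7 ± 2.81 in RP tumours, and Crem was lowest at 4.77 ± 1.23 in RPC and 6.63 ± 2.30 in RP tumours (SD, n = 7 each). Transcript choice sets these lengths, so the order depends on it. Creb1 had the longest of the 10, at 8364 bases beside 2365 for Atf1, and which transcripts the tumours held was not tested.

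Creb1 encodes CREB, the factor for which Crebbp was named, and lies on chromosome 1 (chromosomes here are from RefSeq on GRCm38.p6). It was at 98.5 to 149.8 CPM in RPC tumours (median 106) and at 60.1 to 136.7 CPM in RP tumours (median 89.3). All 7 RPC tumours were above the RP median, but only RPC tumour 6 was above the highest RP tumour, which was RP tumour 3. The log2 fold change was 0.36 (SE 0.16, 95% interval 0.009 to 0.70), with an edgeR adjusted p of 0.223. Of the 14 fits that left out 1 library, only that without RP tumour 3 called Creb1 (log2 fold change 0.49, SE 0.14, adjusted p = 0.0488). That fit called 898 of 14965 tested genes, where the fit of all libraries called 327 of 14804. Without RPC tumours 3, 5 and 6 the log2 fold change of Creb1 was 0.22 (adjusted p = 0.713). A covariate for the mean log2 CPM of the non-tumour markers, called the marker term, gave 0.18 (adjusted p = 0.794).

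Crem, on chromosome 18, encodes activators and, from an internal promoter, the repressor ICER, which a count over the whole gene does not tell apart. It was at 10.2 to 21.1 CPM in RPC tumours (median 14.2) and at 7.74 to 26.0 CPM in RP tumours (median 20.5). RPC tumours were below the RP median in 6 of 7, with RPC tumour 2 the exception, and the lowest tumour of all was RP tumour 1. The log2 fold change was -0.48 (SE 0.27, edgeR adjusted p = 0.319), and between 107 and 660 reads per library lay behind these values.

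Atf1, on chromosome 15, encodes the closest relative of CREB and can pair with it. It was at 58.6 to 71.0 CPM in RPC tumours (median 66.0) and at 56.1 to 92.7 CPM in RP tumours (median 69.7). The RPC values sat inside the RP range, and the log2 fold change was -0.20 (SE 0.12, edgeR adjusted p = 0.364). The number of Creb1 reads per Atf1 read was 1.67, 1.81, 1.48, 1.81, 1.90, 2.27 and 1.55 in RPC tumours 1 to 7, and 0.837, 1.34, 2.44, 0.862, 1.16, 0.904 and 1.40 in RP tumours 1 to 7. All RPC ratios were above those of 6 RP tumours, and RP tumour 3 had the highest ratio of all. This ratio was chosen after its values were seen and was not tested.

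CREB binds the cAMP response element, written TGACGTCA in full, whose core is TGACG, or CGTCA on the opposite strand. The 250 bases before the start of 7 of the 10 genes were searched on both strands in RefSeq promoters (GRCm38.p6), which had entries for all but Crem, Crtc2 and Sik1. The full element was in none of the 7 and in 1.55% of all 32851 promoters of this length. Only the start held in that set was searched for each gene, so any other promoter of a gene was not covered. The core, which also counts inside a full element, was in 2 of the 7, Atf1 and Ppargc1a, and in 17.8% of all promoters. Both windows that hold a core are printed here, with that of Cited4, the gene with the largest fold change, for comparison. They run 5′ to 3′ toward the gene, in lower case with the core in capitals. Atf1 is chr15:100227609-100227858 on the plus strand, Ppargc1a is chr5:51567726-51567975 on the minus strand and Cited4 is chr4:120666313-120666562 on the plus strand.
Atf1: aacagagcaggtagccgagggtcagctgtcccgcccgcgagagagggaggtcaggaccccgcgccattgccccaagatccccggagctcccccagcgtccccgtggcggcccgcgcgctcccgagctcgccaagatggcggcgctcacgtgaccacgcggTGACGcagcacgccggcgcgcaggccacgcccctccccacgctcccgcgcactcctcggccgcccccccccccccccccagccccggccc
Ppargc1a: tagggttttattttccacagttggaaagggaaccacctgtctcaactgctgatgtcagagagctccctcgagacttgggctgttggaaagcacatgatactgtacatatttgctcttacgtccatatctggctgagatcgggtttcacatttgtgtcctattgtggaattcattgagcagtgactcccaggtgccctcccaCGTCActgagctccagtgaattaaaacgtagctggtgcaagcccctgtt
Cited4: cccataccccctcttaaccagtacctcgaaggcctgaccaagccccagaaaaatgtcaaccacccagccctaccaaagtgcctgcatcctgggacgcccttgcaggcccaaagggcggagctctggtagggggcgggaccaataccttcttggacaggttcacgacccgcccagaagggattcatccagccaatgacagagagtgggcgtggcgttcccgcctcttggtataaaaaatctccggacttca
The first base of the core was 90 bases before the start of Atf1 and 49 before that of Ppargc1a. A match describes these letters only, and the counts hold no measure of CREB or Crebbp on the DNA.

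The CRTC coactivators were all lower on average in RPC tumours, by amounts within the spread between tumours. Crtc1, on chromosome 8, is the family member best known from neurons. It was at 37.6 to 82.9 CPM in RPC tumours (median 60.7) and at 35.3 to 127.0 CPM in RP tumours (median 64.2), which overlapped almost fully (log2 fold change -0.30, SE 0.26, edgeR adjusted p = 0.519; -0.13 without RP tumour 1). Crtc2, on chromosome 3 and known for its part in hepatic glucose production, was at 61.4 to 106.6 CPM in RPC tumours (median 73.8) and at 71.7 to 123.0 CPM in RP tumours (median 97.0). RPC tumours 4, 5 and 6 were below every RP tumour, and the log2 fold change was -0.28 (SE 0.17, edgeR adjusted p = 0.36). Crtc3, on chromosome 7 and known from adipose tissue, was at 24.3 to 40.4 CPM in RPC tumours (median 30) and at 21.4 to 59.97 CPM in RP tumours (median 42.9). All 7 RPC tumours were below the RP median, while RP tumour 3 was the lowest of all, and the log2 fold change was -0.41 (SE 0.20, edgeR adjusted p = 0.251). Crtc3 was thus placed against Creb1 in the same libraries: RP tumour 3 was the highest RP tumour for Creb1 and the lowest for Crtc3.

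Sik1, on chromosome 17, encodes salt-inducible kinase 1, which phosphorylates CRTC proteins and is induced by CREB. It was at 187.5, 109.7, 11.5, 36.9, 14.5, 10.7 and 108.4 CPM in RPC tumours 1 to 7, and at 43.8, 73.6, 53.5, 284.2, 194.5, 76.9 and 145.0 CPM in RP tumours 1 to 7. RPC tumours 3, 4, 5 and 6 were below every RP tumour, and the other 3 were above the RP median. The log2 fold change was -0.86 (SE 0.66, edgeR adjusted p = 0.471) and -1.29 with limma-voom (adjusted p = 0.223). The 3 lowest values, 10.7 to 14.5 CPM against at least 36.9 CPM in the other 11 tumours, were in RPC tumours 3, 5 and 6, the libraries with low non-tumour markers, as the plot of Sik1 against those markers shows. There the mean log2 CPM of the 27 markers was -0.96 to -0.61, against 3.14 to 6.27 in the other 11, and 5 of the 27 markers had no reads in all 3. Not all single markers were low there: RPC tumour 5 held Pdgfra and Kdr at 117.1 and 82.9 CPM, and the club cell genes Scgb3a1 in RPC tumour 3, at 18.9 CPM, and Scgb3a2 in RPC tumour 6, at 13.8 CPM, were within the RP range. Without the 3 libraries the log2 fold change of Sik1 was -0.17 (SE 0.53, adjusted p = 0.942), and with a term for those markers it was -0.13 (SE 0.51, adjusted p = 0.97). In bulk tissue, fewer cells of a type and less RNA per cell cannot be told apart.

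**Figure D3:**
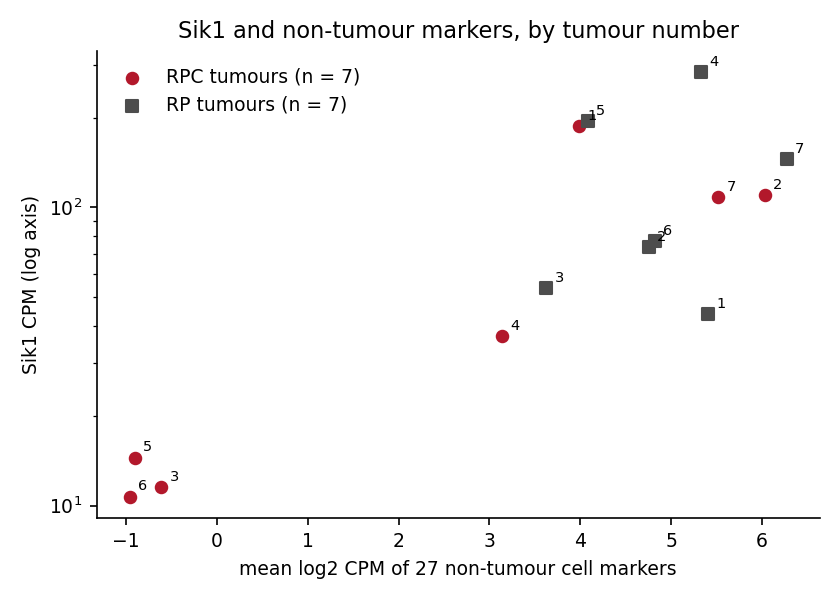
Sik1 level (CPM, log axis) against the mean log2 CPM of 27 markers of non-tumour cells, with 1 point per tumour labelled by its number (red circles RPC, grey squares RP, 7 each). RPC tumours 3, 5 and 6 are at 10.7 to 14.5 CPM with marker means under 0, away from the other 11 tumours at 36.9 CPM and above.

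Cited2, on chromosome 10, encodes a transactivator that competes with HIF-1 alpha for Crebbp and recruits Crebbp to TFAP2 factors. It was at 38.3 to 143.6 CPM in RPC tumours (median 57.6) and at 47.6 to 107.6 CPM in RP tumours (median 70.2). RPC tumour 3, at 143.6 CPM, was above every RP tumour, and the other 6 RPC tumours were all below the RP median. The log2 fold change was -0.26 (SE 0.29, edgeR adjusted p = 0.623). Without RPC tumour 3 it was -0.59 (adjusted p = 0.18), and without RPC tumours 3, 5 and 6 it was -0.66 (SE 0.26, adjusted p = 0.337).

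Cited4, on chromosome 4, encodes a relative of Cited2 that likewise binds Crebbp. It was at 1174, 6.27, 35.9, 17.1, 33.4, 201.2 and 41.0 CPM in RPC tumours 1 to 7, and at 66.0, 35.6, 36.4, 48.7, 46.2, 57.0 and 61.4 CPM in RP tumours 1 to 7. RPC tumours 1 and 6 were 23.4-fold and 4.01-fold above the RP mean, and RPC tumours 2, 4 and 5 were below every RP tumour. The highest RPC tumour was 187.3 times the lowest, where the highest RP tumour was only 1.85 times the lowest. The mean was therefore higher in RPC tumours (215.6 ± 427.9 CPM against 50.2 ± 11.8 CPM in RP tumours; SD, n = 7 each) while the median was lower (35.9 CPM in RPC against 48.7 CPM in RP tumours). The log2 fold change of 2.10 (SE 0.93, 95% interval 0.12 to 4.09, edgeR adjusted p = 0.211) rested on RPC tumour 1, without which it was 0.16 (adjusted p = 0.899) and the RPC mean 55.8 ± 72.4 CPM (SD, n = 6). With limma-voom, which averages log values, it was 0.25 (adjusted p = 0.871), without RPC tumours 3, 5 and 6 it was 2.64 (adjusted p = 0.309) and with the marker term 2.68 (adjusted p = 0.4).

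Cited4 lies near the block of chromosome 4 genes round Mycl1, a MYC-family gene that rose in RPC tumours (log2 fold change 3.91, SE 0.77, edgeR adjusted p = 0.0246). This region was chosen because genes round Mycl1 were higher in RPC tumours in earlier results of these data. The p-values of these genes, from the same libraries, are thus no separate evidence of that rise. The level of Cited4 was read beside that of selected tested genes on either side, which are not all of its neighbours and run past Mycl1. On one side lay Ctps, which encodes CTP synthase. It was at 3484, 2329, 358.7 and 386.4 CPM in RPC tumours 1, 2, 5 and 7, against 117.6 to 273.3 CPM in RP tumours. RPC tumours 3, 4 and 6 were inside the RP range for Ctps, at 175.1, 160.2 and 216 CPM. On the other side, Nfyc, a subunit of the CCAAT-binding factor NF-Y, was at 1216, 733.8 and 545.8 CPM in RPC tumours 1, 2 and 6. It was at 154.4 CPM in RPC tumour 5, against 44.8 to 87.5 CPM in RP tumours. RPC tumours 3, 4 and 7 were inside that range, at 67.2, 68.5 and 76.0 CPM. Nfyc passed between genotypes (log2 fold change 2.78, SE 0.64, edgeR adjusted p = 0.041).

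In RPC tumour 1, Cited4 was about as far above the RP mean as the nearby genes Scmh1, Ctps and Nfyc, by 4.58 on the log2 CPM scale beside 3.70 for Scmh1, 4.54 for Ctps and 4.38 for Nfyc, while Foxo6, just before Scmh1, was at -1.03. In RPC tumour 6, Cited4 was 2.04 above the RP mean, with Ctps at 0.53 on one side and Nfyc at 3.23 on the other. In RPC tumour 2, Cited4 was at -2.94, while Ctps and Nfyc, on either side of it, were 3.96 and 3.65 above the RP mean. Of the other genes plotted, Zmpste24, Ppt1, Cap1, Mfsd2a and Trit1, nearer to Mycl1, rose in RPC tumours too (edgeR adjusted p from 0.00899 to 0.0418). The remaining ones, Hivep3, Edn2, Foxo6, Scmh1, Ctps, Rims3, Dem1, Zfp69, Smap2, Col9a2, Rlf and Bmp8b, did not pass (adjusted p from 0.0519 to 0.971). DNA copy number was not measured in these files.

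**Figure D4:**
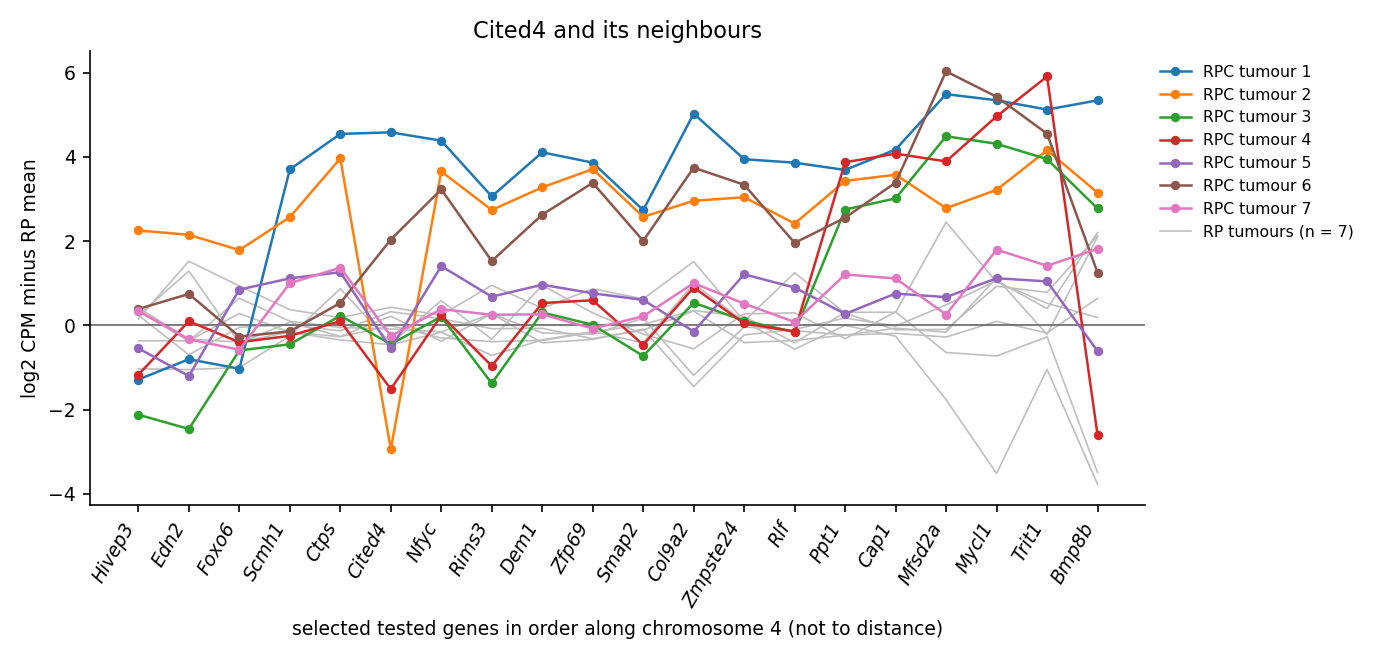
Log2 CPM minus the RP mean for Cited4 and selected tested genes from Hivep3 to Bmp8b, in their order along chromosome 4, for each RPC tumour (coloured lines) and the 7 RP tumours (grey lines). RPC tumour 1 is high at each gene shown from Scmh1 on, and RPC tumour 2 drops to -2.94 at Cited4 between plotted genes that are 3.96 and 3.65 above the RP mean.

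Ppargc1a, on chromosome 5, encodes PGC-1 alpha, a coactivator of nuclear receptors that drives mitochondrial genes, binds Crebbp and is induced through CREB in liver and muscle. It was at 16.9, 16.9, 10.3, 15.4, 86.8, 25.5 and 15.1 CPM in RPC tumours 1 to 7, and at 6.73, 14.2, 15.6, 5.68, 23.5, 1.004 and 7.21 CPM in RP tumours 1 to 7. All 7 RPC tumours were above the RP median, but only RPC tumours 5 and 6 were above every RP tumour, and RP tumour 6 had only 22 reads. The log2 fold change was 1.34 (SE 0.60, 95% interval 0.06 to 2.62, edgeR adjusted p = 0.215). Without RPC tumour 5 it was 0.66 (adjusted p = 0.512), with an RPC mean of 16.7 ± 4.95 CPM (SD, n = 6) against 10.6 ± 7.597 CPM in RP tumours (SD, n = 7). Without RPC tumours 3, 5 and 6 it was 0.61 (adjusted p = 0.745), and with the marker term it was 0.61 (adjusted p = 0.8).

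Over the 14 libraries most of the 45 pairs among the 10 genes were weakly related in log2 CPM: 3 had a Pearson r above 0.5 and 5 had one below -0.5. The highest were Atf1 with Crtc3 (r = 0.69) and Creb1 with Ppargc1a (0.64), and the lowest were Creb1 with Crtc3 (-0.73) and Creb1 with Sik1 (-0.67). These values describe 14 libraries of both genotypes that differ in non-tumour RNA and depth.

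The tested gene closest in pattern to each was sought among 10449 genes with a mean of at least 10 CPM, by Pearson r of log2 CPM over the 14 libraries. Creb1 ran most like the nuclear RNA-binding genes Hnrnpu (r = 0.97, Spearman rho 0.97; r = 0.95 without the 2 libraries farthest from the Creb1 median) and Hnrnpa2b1 (r = 0.94, rho 0.94; 0.92). Sik1 ran most like Tagln, an actin-binding gene of smooth muscle and fibroblasts (r = 0.94, rho 0.89; 0.88), and Serpinh1, a collagen chaperone (r = 0.91, rho 0.88; 0.83). Crtc1 ran most like the AP-1 gene Jund (r = 0.91, rho 0.85; 0.84) and Vav2 (0.90, 0.94; 0.89), and Cited2 most like Tsc22d4 (0.94, 0.88; 0.89) and Agfg2 (0.83, 0.69; 0.80).

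Crem ran most like Pdia3 (r = 0.90, rho 0.89; r = 0.82 without the 2 farthest libraries) and Map2k1 (0.86, 0.90; 0.80), Crtc2 most like Aldoc (0.85, 0.85; 0.84) and Gpr19 (0.83, 0.81; 0.79), and Crtc3 most like Mknk2 (0.90, 0.87; 0.82) and Mlycd (0.86, 0.85; 0.75). Atf1 ran most like Ephx4 (0.84, 0.82; 0.67) and Osbpl2 (0.82, 0.80; 0.74), and Ppargc1a most like Cep170 (0.89, 0.68; 0.69) and Lnp (0.87, 0.75; 0.65). Cited4 had the weakest best matches, Clint1 (r = 0.78, rho 0.51; 0.77) and Pacs2 (0.78, 0.49; 0.71), neither on chromosome 4. The best of 10449 genes is high by selection, and the points share their libraries.

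The pathway round these genes gave few edgeR calls. Among CREB target genes Junb fell, and among relatives and partners of PGC-1 alpha Esrra rose. No other gene of the 6 pathway lists passed the edgeR test over all 14 libraries, while DESeq2 called more of them. Of 18 tested CREB target genes 1 was lower and 0 were higher in RPC tumours (1.12% and 1.09% of all tested genes), with a median log2 fold change of -0.75 beside 0.002 for all tested genes. Junb, an AP-1 subunit, was at 11.5 to 55.6 CPM in RPC tumours and at 47.0 to 102.0 CPM in RP tumours, with 5 of 7 RPC tumours below every RP tumour (log2 fold change -1.12, SE 0.27, edgeR adjusted p = 0.0475). DESeq2 and limma-voom also called Junb (adjusted p = 0.00388 and 0.034). The edgeR call was near the threshold. It held without RPC tumour 1 or 6 or RP tumour 3 and was lost without any of the other 11 libraries (adjusted p up to 0.101), without RPC tumours 3, 5 and 6 (-0.91, adjusted p = 0.175) and with the marker term (-0.87, adjusted p = 0.335). Egr1, an immediate early factor, was at 38.7 CPM in RPC and 107.3 CPM in RP tumours on average. Irs2, an insulin receptor substrate, was at 42.2 CPM in RPC and 73.6 CPM in RP tumours. Vgf, a neuroendocrine secretory peptide precursor, was at 20.1 CPM in RPC and 65.8 CPM in RP tumours. The edgeR adjusted p of Egr1, Irs2 and Vgf was 0.102, 0.107 and 0.145. DESeq2, which called 9.67% of all tested genes, called these genes too (adjusted p = 0.0228, 0.0441 and 0.043), and limma-voom called none of them.

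Of 10 relatives and partners of PGC-1 alpha 1 was higher and 0 were lower (1.09% and 1.12% of all tested genes), with a median log2 fold change of 0.16. Esrra encodes the nuclear receptor ERR alpha, a main partner of PGC-1 alpha. It was at 26.3 to 41.4 CPM in RPC tumours and at 15.8 to 23.8 CPM in RP tumours, so the genotypes did not overlap (log2 fold change 0.66, SE 0.15, edgeR adjusted p = 0.041). The call held without RPC tumour 7 or RP tumour 3 and was lost without any of the other 12 libraries (adjusted p up to 0.0965), without RPC tumours 3, 5 and 6 (0.57, adjusted p = 0.223) and with the marker term (0.59, adjusted p = 0.254). Pprc1, a PGC-1 relative, was at 72.2 CPM in RPC and 40.5 CPM in RP tumours on average (log2 fold change 0.84, SE 0.23, edgeR adjusted p = 0.0693). DESeq2 and limma-voom called Pprc1 (adjusted p = 0.0145 and 0.0393) and also Esrra (adjusted p = 0.000747 and 0.0289). Esrra and Pprc1 are both on chromosome 19, where the median log2 fold change of 501 tested genes was 0.46 and 17.0% were called, all of them higher in RPC tumours. Gabpa, a factor of mitochondrial gene promoters, had a log2 fold change of 0.34, and Ppargc1b, the other close relative of Ppargc1a, of -1.40 (edgeR adjusted p = 0.132 and 0.137). DESeq2 called Gabpa (adjusted p = 0.0493) but not Ppargc1b (0.0767), and limma-voom called neither.

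**Figure D5:**
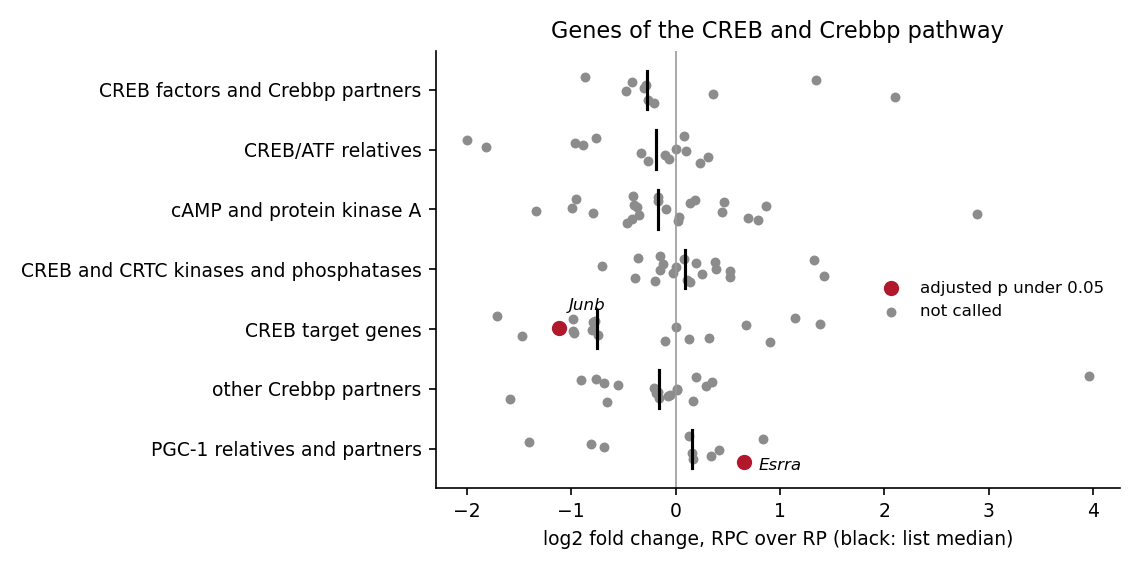
Log2 fold change of RPC over RP tumours for each tested gene of the 10 genes and of 6 pathway lists (1 point per gene, 7 tumours a genotype), with a black bar at each list's median. Junb at -1.12 and Esrra at 0.66 (red) were the genes with an edgeR adjusted p under 0.05.

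The remaining 4 lists had 0 edgeR calls each. Their counts at an unadjusted p under 0.05 stand beside 21.3% of all tested genes (10.3% higher and 11.1% lower in RPC tumours). They came to 28.6% of CREB and ATF relatives, 26.1% of cyclic AMP and protein kinase A genes, 35% of kinases and phosphatases and 15.8% of other Crebbp partners. For CREB target genes and for relatives and partners of PGC-1 alpha the shares were 22.2% and 50%. The DESeq2 and limma-voom calls given with each list stand beside 9.67% and 3.4% of all tested genes. Of 14 CREB and ATF relatives 4 had an unadjusted p under 0.05, all lower in RPC tumours (DESeq2 called 2, limma-voom 0; median log2 fold change -0.18). These were Creb5 (-1.99, SE 0.59, adjusted p = 0.0833), Creb3l1 (-1.81, 0.105), a membrane-bound factor of secretory cells, Crebl2 (-0.76, 0.121) and Creb3l4 (-0.96, 0.156). Levels were low for Creb5 (means of 0.55 CPM in RPC and 2.22 CPM in RP tumours) and Creb3l4 (1.24 and 2.42 CPM). DESeq2 gave Creb5 no adjusted p, so it could not call that gene. Of 23 genes of cyclic AMP and protein kinase A signalling 6 had an unadjusted p under 0.05, 3 in each direction (DESeq2 called 2, limma-voom 0; median -0.17). Pkia, an inhibitor of protein kinase A, was at 68.5 CPM in RPC and 37.6 CPM in RP tumours on average (log2 fold change 0.86, adjusted p = 0.0921; 0.36 without RPC tumours 3, 5 and 6, adjusted p = 0.554), and the adenylyl cyclases Adcy9, Adcy3 and Adcy8 had log2 fold changes of -0.79, 0.79 and 2.89 (adjusted p = 0.1, 0.123 and 0.139). Adcy8 was at 59.99 CPM in RPC tumour 5 and at 6.08 CPM or less in every other library. Without RPC tumours 3, 5 and 6 its log2 fold change was 0.07 (adjusted p = 0.983), with the marker term 0.40 and with DESeq2 0.52.

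Of 20 kinases and phosphatases that act on CREB or CRTC proteins 7 had an unadjusted p under 0.05, 5 higher and 2 lower (DESeq2 called 1, limma-voom 0; median 0.09). Camk4, a calcium-dependent CREB kinase, was at 21.3 CPM in RPC and 7.96 CPM in RP tumours on average (1.42, SE 0.46, adjusted p = 0.102; 0.84 without RPC tumours 3, 5 and 6, adjusted p = 0.521). Sik3, a relative of Sik1, had a log2 fold change of -0.35 (adjusted p = 0.123) with all 7 RPC tumours below the RP median, and Camk2g and Rps6ka2 had values of 0.52 and -0.71 (adjusted p = 0.139 and 0.15). Of 19 other Crebbp partners 3 had an unadjusted p under 0.05, 1 higher and 2 lower (DESeq2 called 2, limma-voom 0; median -0.16). Tfap2a, the factor to which CITED proteins bring Crebbp, was at 27.4, 64.3 and 8.31 CPM in RPC tumours 3, 5 and 6 and at no more than 2.05 CPM in the other 11 libraries (log2 fold change 3.95, SE 1.09, adjusted p = 0.0671; -0.35 without those 3, adjusted p = 0.841). Stat2 and Srebf1 had log2 fold changes of -0.76 and -0.68 (adjusted p = 0.0983 and 0.143), and Epas1, a hypoxia-inducible factor, of -1.58 (adjusted p = 0.262; -0.86 without RPC tumours 3, 5 and 6, adjusted p = 0.536, and -2.70 with limma-voom). Stat2, Srebf1 and Epas1 were each below the RP median in 7 of 7 RPC tumours. They were named for their small p, and the share of all tested genes with this pattern was not counted.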

How the data were processed

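RNA was taken up in TRIzol and its polyadenylated part made into NEBNext Ultra libraries, per the labels' protocols. The authors deposited raw read counts per gene symbol, 1 file per tumour. The submitters' processing notes name the mm9 build, HTSeq 0.6.1, TopHat2 2.0.12 and bcl2fastq 1.8.2. The sources used here do not give settings, annotation or strand use, so overlapping antisense reads cannot be told apart. The 5 rows that name no gene were left out: reads outside genes were 15.1% to 20.5% of a file, reads with several alignments 8.44% to 11.2% and ambiguous reads 0.883% to 1.09%. Libraries within a genotype were all distinct (chi-square per degree of freedom at least 59.2 over 42 pairs).

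Genes were filtered with filterByExpr (minimum count 10, total 15), which kept 14804, scaled by TMM and tested in R 4.3.3 with edgeR 4.0.16 (quasi-likelihood F test, RPC over RP, 14 libraries, no covariate). P-values were Benjamini-Hochberg adjusted over all tested genes and called at 0.05. The SE is the log2 fold change divided by the root of F, intervals are at 95%, and CPM use TMM-scaled library sizes (log2 CPM with a prior count of 2). All 10 genes were kept, so the test planned for dropped genes, and its other prior count, were not run. On simulated data with 7 libraries a genotype, the fit recovered 33% of 97 genes changed 2-fold and 70.1% of 97 changed 4-fold. Of 105 calls there 5 were false. A gene that was not called may therefore still differ.

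The genes and pathway lists were chosen with earlier results of these data known. List genes named in the text are those with the smallest p (up to 4 per list), and genes alike in pattern are the 2 with the highest r. Tested genes near Cited4 were also named, and 1 gene is not reported here. Kmt2a was matched through an older symbol. Not tested for low counts were 1 CREB/ATF relative, 6 CREB targets and 2 other Crebbp partners. Alternatives used DESeq2 1.42.0, limma 3.58.1, other scalings and filters, a replicate block, a marker term and left-out libraries.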

Additional observations from a re-analysis of the deposited data

Results flagged for a closer look

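Of 20 checks of a single tumour far from the rest of its genotype (10 genes in 2 genotypes, on log2 CPM), 2 passed the 95% limit of Dixon's ratio, 0.568 for 7 tumours, and chance gives about 1 in 20. Cited2 in RPC tumour 3 was at 143.6 CPM, next to 59.9 CPM in the second highest RPC tumour, and the gap made up 0.662 of the range. Ppargc1a in RPC tumour 5 was at 86.8 CPM, next to 25.5 CPM in RPC tumour 6, with a ratio of 0.576. Both tumours are among the 3 with low non-tumour markers, whose part in these values was not tested.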

How the results depend on the processing

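Of 230 log2 fold changes (10 genes under 23 alternatives), 228 kept their direction and stayed on their side of the threshold. The exceptions were Creb1 without RP tumour 3 (0.49, called) and Cited4 with the tumour number as a replicate block (-0.0335, adjusted p = 0.983). The tumour numbers did not pair the libraries: deviations of same-numbered tumours correlated from -0.05 to 0.32, and only 2 of 7 matched their own number best. The 327 calls over all genes became 74 with that block, 1431 with DESeq2, 503 with limma-voom, 7 with the marker term, 11 without RPC tumours 3, 5 and 6, and 51 to 898 when 1 library was left out. The count of 0 among the 10 genes became 0 to 1 with 1 library left out. DESeq2 called 9.67% of all tested genes. In the lists it called 2 of 14 CREB/ATF relatives, 2 of 23 cyclic AMP and protein kinase A genes and 1 of 20 kinases and phosphatases. It also called 4 of 18 CREB targets, 2 of 19 other Crebbp partners and 3 of 10 PGC-1 partners. Limma-voom called 3.4% of all tested genes, Junb among the CREB targets and 2 of 10 PGC-1 partners. The single CREB target call became 0 with upper-quartile scaling, no filter, the block, the marker term or without RPC tumours 3, 5 and 6, and the single PGC-1 partner call became 0 with no filter, the block, the marker term or without those tumours. With 1 library left out, calls ran from 0 to 1 for CREB/ATF relatives, for cyclic AMP and protein kinase A and for kinases and phosphatases, 0 to 2 for CREB targets and other Crebbp partners, and 0 to 4 for PGC-1 partners. The causes of these changes were not tested. Share of higher calls was 49.2% and went to 31.1% with the block, 42.9% with the marker term and 27.3% without RPC tumours 3, 5 and 6. No scaling moved the median of all genes by over 0.1. Depth limits Ppargc1a most (22 reads in RP tumour 6), and intervals cover the spread between these tumours only.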
